A study of Mus musculus with 10 samples.

Results

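The genes described here are the output end of the Hippo pathway: the coactivator genes Yap1 (YAP) and Wwtr1 (TAZ), the DNA-binding partner genes Tead1, Tead2, Tead3 and Tead4, the kinase genes Lats1 and Lats2, and the kinase cofactor genes Mob1a and Mob1b. These 10 genes were chosen by name, and all 10 were found among the 19505 named genes of the array, with 1 probe set each. Expression was measured in whole back skin of C57BL/6J mice that were 9 weeks old at the start, on 10 arrays. Expanded skin (4 arrays) lay over a silicon expander that had been filled stepwise with PBS, a salt solution. Non-expanded skin (4 arrays) lay over the same kind of expander left empty. Each of these arms had 1 array on day 0, day 7, day 14 and day 21, counted from the end of filling. The other 2 arrays were skin without an expander or surgery, 1 in anagen (the growing stage of the hair cycle) and 1 in telogen (the resting stage). All 8 expander arrays therefore share the implant and its surgery. The labels leave unsaid if each array came from 1 mouse or from several, and p-values measure only the spread between these arrays.

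In the Hippo pathway, upstream kinases activate LATS1 and LATS2 together with their MOB1 cofactors. Active LATS kinases phosphorylate YAP and TAZ, which then stay in the cytoplasm or are degraded. When the pathway is off, YAP and TAZ enter the nucleus and switch on genes through the TEAD factors, which bind DNA and hold YAP or TAZ there. In skin, YAP and TAZ are known for keeping basal keratinocytes dividing and for answering mechanical load. Much of this control acts on the proteins, which mRNA levels do not measure.

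The deposited values are log signals whose base is not stated and was taken as 2 (log2), so that a difference of 1 is 2-fold, and levels of different genes were not set against each other because probe sets differ in brightness. Array medians lay between 6.27 and 6.45 and the medians of the 23 background probe sets of each array between 5.32 and 5.53. Yap1, Wwtr1, Tead1, Tead3, Lats1, Lats2 and Mob1a lay above the brightest background probe set on all 10 arrays. Tead2 and Tead4 lay below that brightest probe set on all 10 arrays, and below the array's own background median on 9 and on 8 arrays, so their values say little about expression. Mob1b lay above the background median on all 10 arrays and below the brightest background probe set on 9. The skin label was borne out by its markers, since 8 genes of basal keratinocytes averaged 12.59 to 13.76 and 7 genes of fibroblasts 14.94 to 17.52 across arrays. The piece also held skeletal muscle, whose 10 markers averaged 13.59 to 15.89 in expanded skin and 16.13 to 16.80 in non-expanded skin, with no overlap. In such bulk samples, fewer cells of a type and less RNA per cell cannot be told apart.

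In the GRCm38 assembly (mm10), Yap1 lies on chromosome 9 (7931999 to 8004638), Wwtr1 on chromosome 3 (57455644 to 57575910), Lats1 on chromosome 10 (7681200 to 7716461), Lats2 on chromosome 14 (57689662 to 57746212), Mob1a on chromosome 6 (83326034 to 83342812) and Mob1b on chromosome 5 (88720871 to 88758455). Tead1 and Tead2 share chromosome 7, Tead3 lies on chromosome 17 and Tead4 on chromosome 6. RefSeq promoter windows (250 bases before to 50 bases after a start site, GRCm38.p6) were at hand for 8 of the 10 genes, all but Tead1 and Tead4. They were searched on both strands for GGAATG, a core of sites bound by TEAD factors, since Lats2 is known as a target of YAP. The letters occurred in windows of 5 of these 8 genes (Yap1, Wwtr1, Tead3, Lats2 and Mob1a), and in windows of 16.6% of the 27025 genes in the table. The Lats2 match lay 5 bases into the transcript. TGANTCA, the letters bound by Fos and Jun proteins, occurred in windows of 0 of the 8 genes and of 8.97% of all genes. A match is a description of the letters and not a binding site. The sequences given are the bases upstream of the annotated gene for both coactivators, for Mob1a, the gene with the lowest p between the arms, and for Lats1, the one gene whose arms did not overlap, which had no match. Capitals mark the TEAD letters (on the other strand, and so read as CATTCC, in Mob1a), which begin at position -141 for Yap1, -136 for Wwtr1 and -209 for Mob1a, counted from the start site of the window. The stretches are chr9:8004639-8004846 (minus strand), chr3:57575911-57576160 (minus strand), chr6:83325789-83326033 (plus strand) and chr10:7680959-7681199 (plus strand).
Yap1: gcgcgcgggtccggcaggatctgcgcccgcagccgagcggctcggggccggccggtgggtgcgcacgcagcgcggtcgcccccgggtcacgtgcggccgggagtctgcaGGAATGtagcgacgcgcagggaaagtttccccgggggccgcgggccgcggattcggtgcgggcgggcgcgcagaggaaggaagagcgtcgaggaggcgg
Wwtr1: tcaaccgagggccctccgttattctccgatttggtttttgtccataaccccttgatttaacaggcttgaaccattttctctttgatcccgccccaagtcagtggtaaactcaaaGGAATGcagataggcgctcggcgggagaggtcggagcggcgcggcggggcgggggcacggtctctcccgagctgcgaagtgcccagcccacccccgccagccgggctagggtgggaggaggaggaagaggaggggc
Mob1a: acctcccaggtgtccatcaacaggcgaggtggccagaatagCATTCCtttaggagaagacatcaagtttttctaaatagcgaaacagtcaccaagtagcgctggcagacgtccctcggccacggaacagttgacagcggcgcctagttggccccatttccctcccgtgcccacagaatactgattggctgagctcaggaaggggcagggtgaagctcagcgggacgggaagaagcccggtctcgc
Lats1: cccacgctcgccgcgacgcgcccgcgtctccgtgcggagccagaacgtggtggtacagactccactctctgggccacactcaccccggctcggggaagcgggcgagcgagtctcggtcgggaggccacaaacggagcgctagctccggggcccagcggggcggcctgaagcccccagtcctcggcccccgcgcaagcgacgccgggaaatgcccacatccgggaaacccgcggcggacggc

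Between expanded and non-expanded skin, 7 of the 8 genes with signals above the background median on every array (all but Tead2 and Tead4) had a mean on the higher side in expanded skin, and Yap1 was the exception. The differences were small. The 2 with the lowest p were those of Mob1a and Wwtr1, each 1.6-fold, and none passed. The median difference over these 8 genes was 0.37 on the log2 scale, against 0.0201 over all 13653 genes tested, of which 52.5% lay on the higher side. The comparison asks whether filling the expander went with other levels of these mRNAs, and it was fitted in limma with the day as a block and p-values adjusted over all genes. None of the 10 genes passed an adjusted p of 0.05, as did 0% of all genes, and the lowest adjusted p among the 10 was 0.493. At an unadjusted p under 0.05, 2 of the 10 were higher (Mob1a and Wwtr1), against 4.83% of all genes. Wwtr1, Lats1, Mob1a and Mob1b were higher in expanded skin on all 4 days, so 4 of 10, against 9.18% of all genes. In limma 1202 of all genes had an unadjusted p under 0.05, and the lowest adjusted p of any gene was 0.221. In simulated data this fit recovered 3 of 67 genes changed by 1 log2 unit and 60 of 66 changed by 4, so differences of the size seen here were mostly out of its reach.

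**Figure D1:**
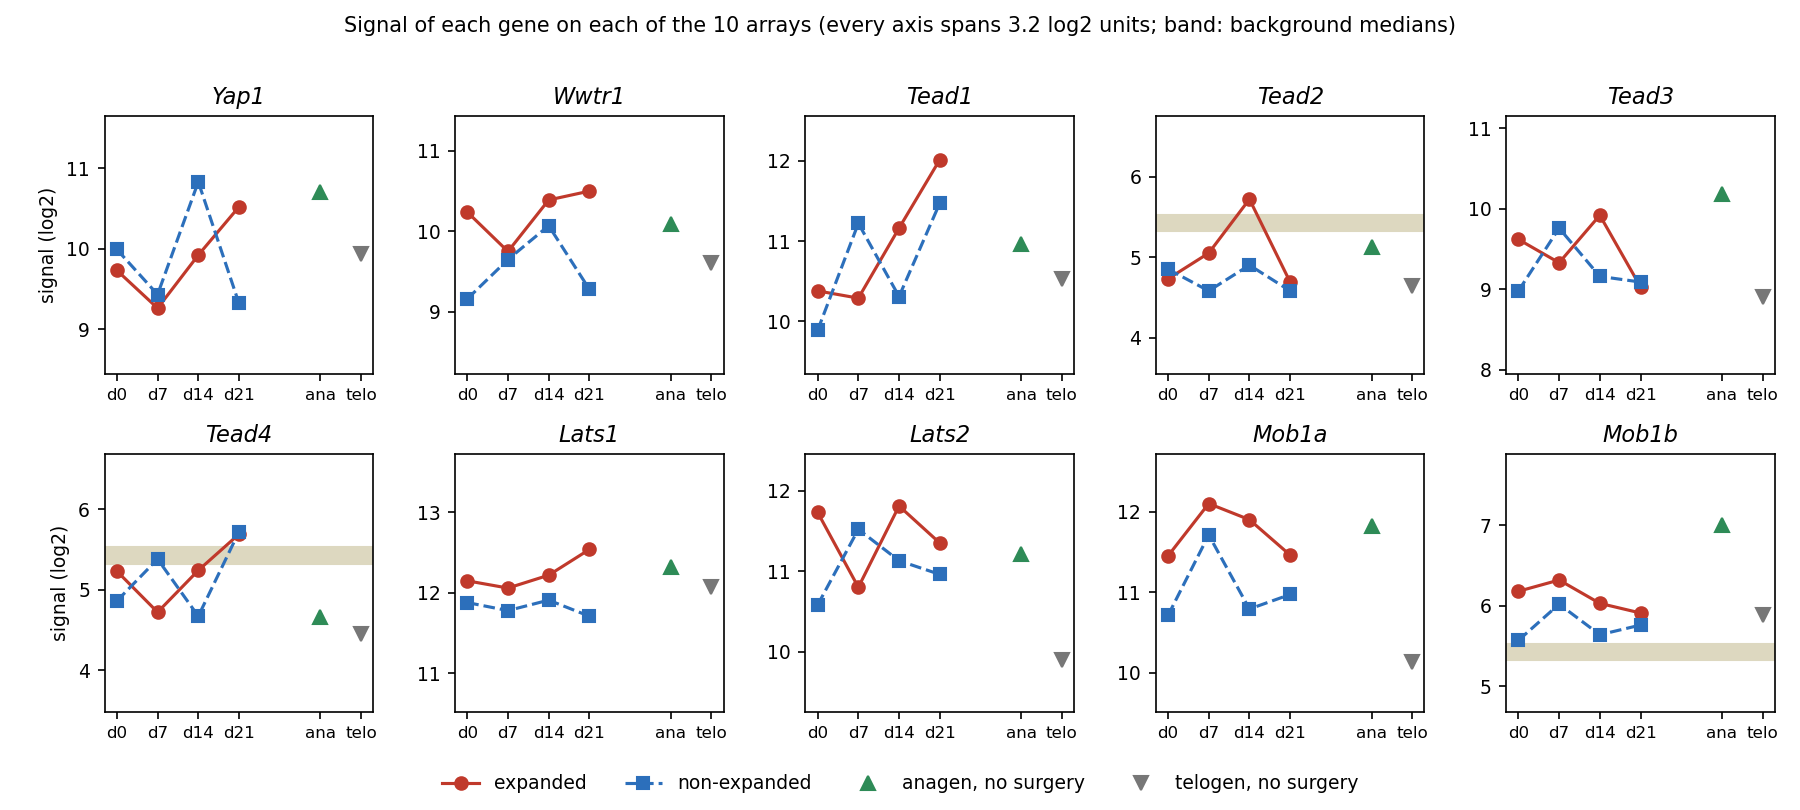
Log2 signal (y axis) of each of the 10 genes on each array, with expanded skin as circles, non-expanded skin as squares by day, anagen as an upward and telogen as a downward triangle; the band spans the background medians of 5.32 to 5.53. Lats1 in expanded skin lies above non-expanded skin on every day, the Yap1 lines cross, and Tead2 and Tead4 lie near or below the band.

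Of the coactivators, Wwtr1 was higher in expanded skin on all 4 days and Yap1 on 1. Wwtr1, which encodes TAZ, read 10.24, 9.75, 10.39 and 10.50 on days 0, 7, 14 and 21 in expanded skin, against 9.16, 9.65, 10.07 and 9.28 in non-expanded skin. It was higher in expanded skin on each day, by 1.09 and 1.23 on days 0 and 21 but by only 0.09 on day 7, and the arms overlapped. Its mean was 10.22 ± 0.33 over expanded and 9.54 ± 0.41 over non-expanded arrays (SD, n = 4 each), a log2 difference of 0.68 ± 0.28 (SE, 95% interval 0.02 to 1.34, limma adjusted p = 0.556). The unadjusted p of Wwtr1 in limma, 0.0458, lay just inside 0.05. It was 0.15, 0.0587 and 0.181 without day 0, day 14 and day 21, and stayed under 0.05 without day 7. The basal keratinocyte markers also stood higher in expanded skin, with 7 of 8 on that side, a median of 0.64 and 6 at an unadjusted p under 0.05, against 4.83% of all genes higher at that p, and none after adjustment. Over the 8 expander arrays Wwtr1 correlated with the mean of these markers at r = 0.79 (0.64 over all 10 arrays, rho = 0.62). All 7 differentiated keratinocyte markers tested were also higher in expanded skin, with a median of 0.61. Of these 7, 3 had an unadjusted p under 0.05, against 4.83% of all genes higher at that p, and none passed after adjustment. With their mean, r of Wwtr1 was 0.37 over the 8 expander arrays and 0.36 over all 10. These are among 110 relations computed with marker lists, over arrays that share conditions. The part of keratinocyte content in the Wwtr1 difference was not tested.

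Yap1 read 9.73, 9.26, 9.92 and 10.52 on days 0, 7, 14 and 21 in expanded skin, against 9.99, 9.43, 10.83 and 9.32 in non-expanded skin. It was lower in expanded skin on the 3 earlier days, by up to 0.92 on day 14, and higher by 1.20 on day 21. The highest Yap1 value of all 10 arrays was in non-expanded skin of day 14. The means were 9.85 ± 0.52 over expanded and 9.89 ± 0.69 over non-expanded arrays (SD, n = 4 each), and the difference of -0.04 ± 0.36 had a 95% interval of -0.91 to 0.83 (adjusted p = 0.984). The sign of the Yap1 difference turned with the day left out, at 0.03, 0.01 and 0.25 without days 0, 7 and 14 and -0.45 without day 21.

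Wwtr1 minus Yap1, formed within each array, stood higher in expanded skin on 4 of 4 days, by 1.34, 0.27, 1.23 and 0.03. Its mean was 0.37 ± 0.25 over expanded and -0.35 ± 0.52 over non-expanded arrays (SD, n = 4 each), a change of 0.72. The exact paired permutation test gave p = 0.13 (two-sided), rounded and the smallest value that 4 pairs can give, so this design could not pass 0.05. An unpaired exact permutation of the 8 arrays gave p = 0.0571.

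Among the kinase genes, Lats1 showed the cleanest separation and a small size. It read 12.15, 12.06, 12.22 and 12.54 on days 0, 7, 14 and 21 in expanded skin, against 11.88, 11.78, 11.91 and 11.71 in non-expanded skin. Every expanded array lay above every non-expanded array, which held for 1 of the 10 genes and for 2.97% of all genes. The means were 12.24 ± 0.21 over expanded and 11.82 ± 0.09 over non-expanded arrays (SD, n = 4 each), a difference of 0.42 ± 0.22, or 1.34-fold (adjusted p = 0.642). The daily differences of Lats1 were 0.28, 0.28 and 0.30 on days 0, 7 and 14 and 0.83 on day 21. In skin without surgery Lats1 averaged 12.19 ± 0.18 (SD, n = 2). Against that skin it differed by 0.05 ± 0.25 in expanded skin (limma adjusted p = 0.953). In non-expanded skin it differed from skin without surgery by -0.37 ± 0.25 (limma adjusted p = 0.509). Over all 10 arrays Lats1 spanned 0.83, a range smaller than that of all but 7.3% of the genes tested. With the basal keratinocyte markers, r of Lats1 was 0.86 over the 8 expander arrays and 0.53 over all 10 (rho = 0.44). With the mean of 7 differentiated keratinocyte markers, r of Lats1 was 0.46 and 0.33 over the same arrays. These are among 110 relations computed with marker lists, over arrays that share conditions. The part of keratinocyte content in the Lats1 difference was not tested.

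Lats2, a target gene of YAP as well as its inhibitor, changed side with the day. It read 11.73, 10.80, 11.81 and 11.35 in expanded skin on days 0, 7, 14 and 21, against 10.58, 11.52, 11.13 and 10.96 in non-expanded skin. Expanded skin was higher by 1.15, 0.69 and 0.39 on days 0, 14 and 21 and differed by -0.72 on day 7. The means of 11.42 ± 0.46 over expanded and 11.05 ± 0.39 over non-expanded arrays (SD, n = 4 each) differed by 0.38 ± 0.34 (adjusted p = 0.765). The Lats2 difference was 0.12 without day 0 (unadjusted p = 0.751), 0.74 without day 7 (unadjusted p = 0.0352, adjusted p = 0.382), 0.27 without day 14 and 0.37 without day 21. Lats2 minus Lats1 within arrays changed by -0.04 between the arms (exact paired permutation p = 0.875), higher on 2 of 4 days, so unequal change of the pair was not shown.

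The cofactor gene Mob1a had the lowest p of the 10. It read 11.45, 12.10, 11.90 and 11.46 on days 0, 7, 14 and 21 in expanded skin, against 10.71, 11.71, 10.79 and 10.97 in non-expanded skin. Each day stood higher in expanded skin, by 0.39 to 1.11, while the non-expanded array of day 7 lay above the expanded arrays of days 0 and 21. The means were 11.73 ± 0.33 over expanded and 11.05 ± 0.46 over non-expanded arrays (SD, n = 4 each), a difference of 0.68 ± 0.23 (95% interval 0.13 to 1.23, adjusted p = 0.493, unadjusted p = 0.0227). Without day 0, 7, 14 or 21 the unadjusted p of Mob1a was 0.0647, 0.0259, 0.0883 and 0.0506.

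Mob1b, whose protein is nearly identical to that of Mob1a, read 6.18, 6.32, 6.03 and 5.91 on days 0, 7, 14 and 21 in expanded skin, against 5.57, 6.02, 5.64 and 5.76 in non-expanded skin. All 4 daily differences were positive, from 0.15 to 0.61, and the arms overlapped. The means of 6.11 ± 0.18 over expanded and 5.75 ± 0.20 over non-expanded arrays (SD, n = 4 each) differed by 0.36 ± 0.21 (adjusted p = 0.673). Probe sequences were not used here, so whether the probe sets of Mob1a and Mob1b share signal was not tested. Mob1a minus Mob1b within arrays stood above the non-expanded value on each of 4 days, by 0.32 on average (exact paired permutation p = 0.13, the smallest possible). Mob1b lay below the brightest background probe set on 9 of the 10 arrays, and the part of this low signal in the contrast was not tested.

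Across the 10 arrays the level of Mob1a was lower where the mean of the 10 skeletal muscle markers was higher (Pearson r = -0.86, Spearman rho = -0.89, across arrays that share conditions and so a description). The coefficient was -0.85 over the 8 expander arrays, -0.83 without the anagen array and the expanded array of day 7, and -0.86 over the 7 arrays left when the 3 with the lowest muscle mean were set aside. The muscle markers were lower in expanded than in non-expanded skin, and 10 of 10 had a mean on the lower side there, 7 of them at an unadjusted p under 0.05, against 3.98% of all genes lower at that p, and none after adjustment. Their part in the Mob1a difference was not tested. This was 1 of 110 relations computed between the 10 genes and 11 marker lists.

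**Figure D2:**
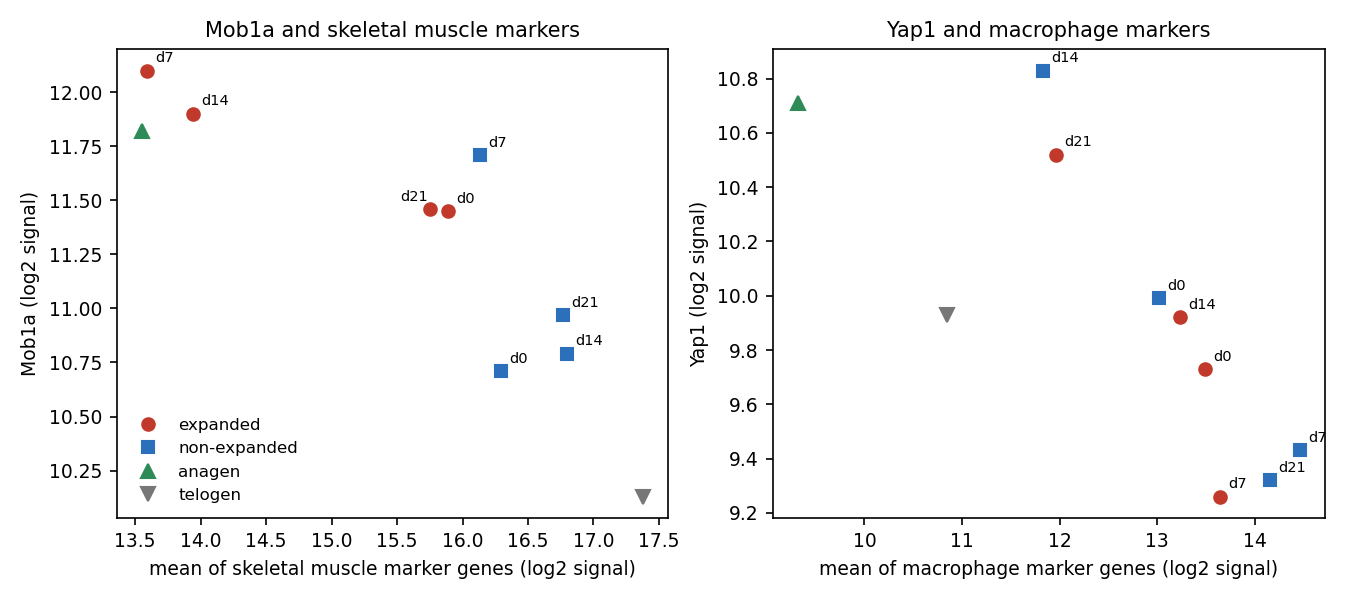
Log2 signal (y axes) of Mob1a against the mean log2 signal of 10 skeletal muscle markers and of Yap1 against that of 7 macrophage markers (x axes), 1 point per array with the day beside the expander arrays. Mob1a is highest on the arrays with the least muscle signal (r = -0.86), and Yap1 is lower on expander arrays with more macrophage signal (r = -0.94 over these 8 arrays), with its lowest value, 9.26, at a macrophage mean of 13.64.

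Among the TEAD genes, only Tead1 and Tead3 gave signals clear of background. Tead1 read 10.38, 10.29, 11.16 and 12.01 on days 0, 7, 14 and 21 in expanded skin, against 9.89, 11.22, 10.31 and 11.47 in non-expanded skin. It was highest on the expanded array of day 21, and day 7 was the one day with a lower value in expanded skin (-0.93). The means were 10.96 ± 0.80 over expanded and 10.72 ± 0.75 over non-expanded arrays (SD, n = 4 each), a difference of 0.24 ± 0.34 (95% interval -0.57 to 1.04, adjusted p = 0.86). Without day 0, 7, 14 or 21 the Tead1 difference was 0.15, 0.62, 0.03 and 0.13, with an unadjusted p of 0.0477 without day 7. Tead3 read 9.62, 9.33, 9.92 and 9.03 in expanded skin, against 8.98, 9.76, 9.16 and 9.09 in non-expanded skin on the same days. Its differences of 0.64 and 0.76 on days 0 and 14 stood against -0.42 and -0.07 on days 7 and 21, with a mean of 0.23 ± 0.28 (adjusted p = 0.832).

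The signals of Tead2 and Tead4 were near background in both arms. The Tead2 mean was 5.05 ± 0.48 for expanded and 4.73 ± 0.17 for non-expanded arrays (SD, n = 4 each), and its one value above the background median was the 5.72 of expanded skin on day 14. The Tead4 mean was 5.22 ± 0.40 for expanded and 5.16 ± 0.48 for non-expanded arrays, with its highest values on day 21, at 5.69 and 5.72. Differences of these genes between the arms are not given, because both groups lay at background.

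**Figure D3:**
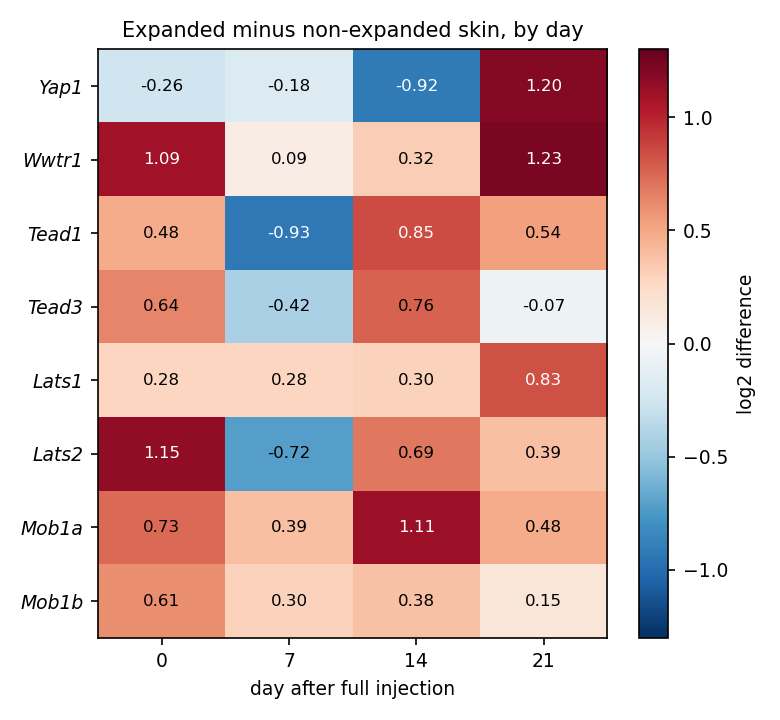
Log2 difference between the expanded and the non-expanded array of each day (columns) for the 8 genes with signals above the background median on every array (rows), with the value in each cell. Wwtr1, Lats1, Mob1a and Mob1b are positive on all 4 days, while Tead1, Tead3 and Lats2 are negative on day 7 and positive on days 0 and 14.

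Fewer of the genes were higher in expanded skin on day 7 than on the other days. Leaving out Tead2 and Tead4, 7, 4, 7 and 7 of 8 genes were higher in expanded skin on days 0, 7, 14 and 21, against 53, 46.3, 52.3 and 54% of all genes, with medians of 0.62, -0.04, 0.54 and 0.51. Tead1, Tead3 and Lats2 were lower in expanded skin on day 7 and higher on days 0 and 14. Of the known target genes of YAP and TAZ, 19, 8, 14 and 17 of 21 were higher on days 0, 7, 14 and 21, with medians of 0.97, -0.72, 0.36 and 0.94. Of 7 fibroblast markers, 6 were higher on day 0 and 0 on day 7. Hair shaft and inner root sheath markers stood at a mean of 12.84 on the expanded array of day 7, against 4.67 on the non-expanded one. The part of these cell markers in the values of day 7 was not tested. A day has a single array in each arm and was not tested.

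Over the days, Tead1 was the one gene whose straight line in expanded skin had an unadjusted p under 0.05 (1 of 10, against 1.18% of all genes higher). It gained 1.73 ± 0.65 over 21 days in expanded skin (unadjusted p = 0.0304, adjusted p = 1) and 1.15 ± 0.65 in non-expanded skin (unadjusted p = 0.118, adjusted p = 0.991). The slopes of the arms differed by 0.58 ± 0.92 (adjusted p = 0.999), so a difference between them was not shown. Without day 21 the gain of Tead1 in expanded skin was 1.18 (unadjusted p = 0.358). The slope of Yap1 was 0.91 ± 0.75 in expanded and -0.18 ± 0.75 in non-expanded skin, and its difference of 1.09 ± 1.06 had a 95% interval of -1.38 to 3.56. Without day 0, 7, 14 or 21 that difference of slopes was 2.06, 1.11, 1.54 and -0.99. In non-expanded skin 0 of 10 genes had an unadjusted p under 0.05 for the slope (3.63% of all genes), and likewise 0 of 10 for the difference of slopes (1.22%). No gene of the array passed the adjusted threshold in these limma slope fits (0% each), with 339 genes at an unadjusted p under 0.05 in expanded skin, 495 in non-expanded skin and 166 for the difference. In simulated data the difference of slopes recovered 0 of 66 genes with a change of 4 log2 units, so a missing call there carries no weight.

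Against skin without surgery, the anagen and telogen arrays together, none of the 10 genes passed in either arm. Lats2 and Mob1a had the largest positive values in expanded skin and Mob1b the largest negative one in non-expanded skin. Lats2 differed by 0.87 ± 0.44 in expanded skin (adjusted p = 0.367) and by 0.49 ± 0.44 in non-expanded skin (adjusted p = 0.643), and Mob1a by 0.75 ± 0.47 and 0.07 ± 0.47. Mob1b differed by -0.34 ± 0.33 in expanded skin (adjusted p = 0.677) and by -0.70 ± 0.33 in non-expanded skin (adjusted p = 0.339). Both comparisons use the same 2 arrays without surgery. At an unadjusted p under 0.05 they held 0 of the 10 genes each, against 16.4% of all genes for expanded and 15.7% for non-expanded skin, and at an adjusted p under 0.05 they held 0.476% and 0% of all genes. Yap1 had its highest mean in skin without surgery, 10.32 ± 0.56 (SD, n = 2), followed by 9.89 in non-expanded and 9.85 in expanded skin, and no neighbouring pair in that order had a difference whose 95% interval left out 0. For Wwtr1 the order was expanded skin at 10.22, skin without surgery at 9.85 ± 0.34 (SD, n = 2) and non-expanded skin at 9.54, again with no such pair.

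**Figure D4:**
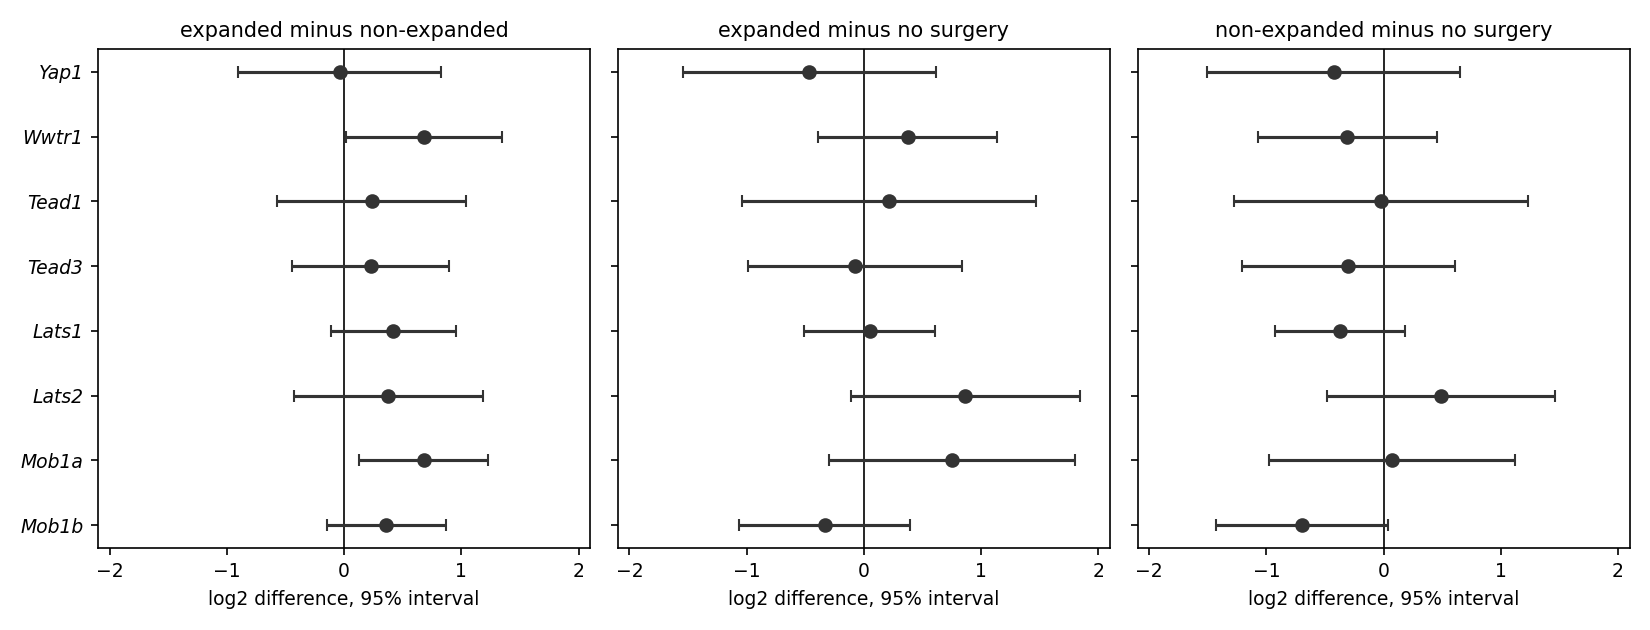
Log2 differences (x axes, points) with 95% intervals (bars) of the 8 genes with signals above the background median on every array in 3 limma comparisons: expanded minus non-expanded skin, expanded skin minus skin without surgery, and non-expanded skin minus skin without surgery. In the left panel the intervals of Wwtr1 (0.02 to 1.34) and Mob1a (0.13 to 1.23) lie above 0, and all others in the 3 panels include 0.

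In skin without surgery, all 8 genes with signals above the background median on every array were higher in anagen than in telogen, against 49.6% of all genes, with a single array of each stage and no test. Mob1a read 11.82 in anagen and 10.13 in telogen, a difference of 1.69, the largest of these. Lats2 read 11.21 in anagen and 9.90 in telogen (1.31), Tead3 10.19 and 8.91 (1.28), and Mob1b 7.00 and 5.89 (1.10). These 4 of 10 genes were at least 2-fold higher in anagen, as were 23.5% of all genes. Yap1 differed by 0.79 (10.71 in anagen, 9.93 in telogen), Wwtr1 by 0.48, Tead1 by 0.43 and Lats1 by 0.25. The same anagen array had hair shaft and inner root sheath markers at 16.68, against 6.95 in telogen, and skeletal muscle markers at 13.55, against 17.38, and their part in these values was not tested.

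Each arm was also set against each stage alone. Set against telogen alone, Mob1a was higher by 1.6 ± 0.44 in expanded skin (limma unadjusted p = 0.00506, adjusted p = 0.0951) and by 0.92 ± 0.44 in non-expanded skin (adjusted p = 0.388). Lats2 was higher than in telogen by 1.52 ± 0.46 in expanded skin (unadjusted p = 0.0087, adjusted p = 0.112) and by 1.14 ± 0.46 in non-expanded skin (adjusted p = 0.322). Set against anagen alone, Mob1a differed by -0.09 in expanded skin and -0.77 in non-expanded skin. Mob1b fell below anagen by 1.25 in non-expanded skin, with a difference of -1.25 ± 0.31 (adjusted p = 0.0233), while 2645 of the 13653 genes passed in that fit. Against telogen alone, Mob1b in non-expanded skin differed by -0.15. These fits rest on a single array without surgery, which was assumed to vary like the arrays of the other groups.

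The rest of the pathway was followed through lists of its genes. Of the upstream kinases and their scaffolds, 18 of 20 listed genes were tested. Between the arms 12 had a mean on the higher side in expanded skin, against 52.5% of all genes, with a median of 0.09. None of the 18 passed at an adjusted or unadjusted p under 0.05, against 0% and 8.8% of all genes. The lowest p was that of Wwc2, a scaffold of the KIBRA family, at 0.50 ± 0.23. Stk38, a kinase related to the LATS kinases, differed by -0.49 ± 0.28, and Mob3a and Stk38l by 0.41 ± 0.24 and 0.35 ± 0.22. Of 17 adaptors and inhibitors, 13 lay on the higher side, against 52.5% of all genes, with a median of 0.22 and none passed. Among them, Strn, a subunit of the phosphatase complex that opposes the upstream kinases, differed by 0.52 ± 0.25, and the casein kinase genes Csnk1e and Csnk1d by 0.67 ± 0.33 and 0.46 ± 0.23. Amotl2, which holds YAP at cell junctions, differed by 0.83 ± 0.44.

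Genes of cell polarity and junctions feed into the pathway. They lay on the higher side in 12 of 13 cases, against 52.5% of all genes, with a median of 0.40. None passed after adjustment, and 3 were higher at an unadjusted p under 0.05, against 4.83% of all genes. These were Crb3, Cdh1 and Llgl2. The polarity genes Crb3 and Llgl2 differed by 0.97 ± 0.23 (adjusted p = 0.354) and 0.69 ± 0.25. Cdh1, which encodes E-cadherin, differed by 0.96 ± 0.34, and the giant cadherin gene Fat1 by 0.52 ± 0.25. The Crb3 mean in non-expanded skin, 5.74, was near background. The background medians of those arrays were 5.35 to 5.53 and their brightest background probe sets 6.50 to 6.66. Crb3, Cdh1 and Llgl2 are genes of epithelia, and the basal keratinocyte markers lay between 13.35 and 13.76 in expanded skin and between 12.61 and 13.36 in non-expanded skin. The part of keratinocyte content in these values was not tested. Against skin without surgery, 10 of these 13 polarity and junction genes were lower in non-expanded skin, with a median of -0.76. In expanded skin 9 of the 13 were lower than in skin without surgery, with a median of -0.11. Of all genes, 50.7% and 50.6% were higher in these 2 comparisons. Of 10 TEAD cofactors and phosphoserine-binding adaptors tested, 7 lay on the higher side, against 52.5% of all genes, with a median of 0.15. Sfn, an adaptor of keratinocytes that binds phosphorylated proteins, differed by 1.90 ± 0.54 (adjusted p = 0.428) and Ywhaz by 0.42 ± 0.21.

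The largest median among these lists was that of the target genes of YAP and TAZ. Of 21 tested, Lats2 among them, 16 lay on the higher side in expanded skin, against 52.5% of all genes, with a median of 0.74. At an unadjusted p under 0.05, 6 were higher and 1 lower, against 4.83% and 3.98% of all genes, while none passed after adjustment. Ccn2 and Ankrd1 differed by 2.84 ± 0.49 (adjusted p = 0.288) and 5.66 ± 1.33, Fjx1 and Gadd45a by 0.96 ± 0.22 and 0.94 ± 0.23. The Fjx1 mean in non-expanded skin, 6.25, lay below the brightest background probe sets of those arrays (6.50 to 6.66). The Ankrd1 mean was 15.43 ± 0.60 over expanded and 9.77 ± 4.30 over non-expanded arrays (SD, n = 4 each), so the non-expanded arrays spread far more widely. Its fitted change over 21 days was -0.48 ± 1.91 in expanded skin and -8.66 ± 1.91 in non-expanded skin (limma adjusted p = 0.991, unadjusted p = 0.00224), and the slopes differed by 8.18 ± 2.70 (adjusted p = 0.999, unadjusted p = 0.0176). Ankrd1 is also made by striated muscle. The skeletal muscle markers were lower in expanded skin for 10 of 10, with a median of -1.85, and the part of muscle in the Ankrd1 values was not tested. Against skin without surgery, Ccn2, a matrix protein, differed by 2.34 ± 0.66 in non-expanded skin (limma adjusted p = 0.142). It was higher by 5.17 ± 0.66 in expanded skin (limma adjusted p = 0.0162). Of this list it alone passed in expanded skin, as did 0.476% of all genes. This pass was not kept in every fit that left out a day or hair stage. Over the same comparison Yap1 differed by -0.47 ± 0.49 and Wwtr1 by 0.37 ± 0.35.

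Within the set, Wwtr1 and Lats1 had the highest correlation of any pair across the 10 arrays (r = 0.80, rho = 0.83). Next, among genes above the background median on every array, came Tead3 with Mob1b (r = 0.76) and with Mob1a (r = 0.73). The highest r of Yap1 with any of the other genes was 0.52, with Lats1. The arrays share days, arms and stages, so these are descriptions over 10 arrays. Against macrophage markers, the r of Yap1 was -0.78 over 10 arrays (rho = -0.85) and -0.94 over the 8 expander arrays. The 7 macrophage markers averaged lowest among expander arrays at 11.83 (non-expanded skin of day 14) and 11.96 (expanded skin of day 21), the 2 expander arrays with the highest Yap1. They averaged 14.46 and 14.16 in non-expanded skin of days 7 and 21, where Yap1 read 9.43 and 9.32. The lowest Yap1 value, 9.26, was that of expanded skin on day 7, whose macrophage mean of 13.64 lay below both. The mean of 5 melanocyte markers lay at 5.59 to 6.63 on the 8 expander arrays. On each it was below the brightest background probe set (6.50 to 6.66), so its values there say little about expression. With this mean, r of Yap1 was 0.83 over the 8 expander arrays and 0.59 over all 10 (rho = 0.7). These were picked from the 110 relations computed with marker lists. The part of macrophage or melanocyte content in the Yap1 values was not tested.

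Among all genes tested, those whose pattern over the 10 arrays was most like that of Yap1 were Mid1ip1 (r = 0.938), Eral1 (r = 0.927) and Lrig1 (r = 0.92), the last a marker of stem cells in the hair follicle. Without the 2 arrays farthest from the Yap1 median, r was 0.9, 0.865 and 0.927. Closest to Wwtr1 were Arpin (r = 0.92), an inhibitor of actin branching, Gask1b (r = 0.885) and Ppfibp1 (r = 0.885). Closest to Tead1 were Sspn (r = 0.963), which encodes sarcospan of the dystrophin complex of muscle, Mr1 (r = 0.94) and Alg12 (r = 0.926). With the mean of the skeletal muscle markers, r of Tead1 itself was -0.06 (rho = -0.09). Closest to Lats2 were Gcc1 (r = 0.982), Zfpm1 (r = 0.949) and Ric8a (r = 0.937). The closest genes are the highest of 13653 genes searched over 10 arrays and are given as descriptions.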

How the data were processed

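Total RNA of whole skin was extracted with an RNeasy Protect Mini kit and labelled for Affymetrix arrays, per the labels' protocols, and mm10 is the build in the submitters' processing notes. The deposited log2 values of 28846 probe sets were used as they stand. The log base, taken as 2, and the authors' background correction, normalization and pooling are not given in the sources used here. Symbols were read from the platform table (19572 probe sets with 1 symbol, 9243 with none, 31 controls), keeping the brightest probe set of each of 19505 genes. The 13653 genes above the 30th percentile of mean level (4.86) were tested, all 10 described genes among them.

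Differences were fitted with limma 3.58.1 in R 4.3.3 and adjusted by Benjamini-Hochberg over all tested genes. Expanded and non-expanded skin were compared with the day as a block, because the labels give both arms the same days. Each array's deviations from the mean of its arm were correlated, over the genes tested, with those of the other arm's same-day array. The coefficients were -0.133, -0.171, -0.104 and 0.358 on days 0, 7, 14 and 21, so positive only on day 21. Lines over 21 days were fitted per arm, and all 10 arrays entered the fit against skin without surgery. Differences between related genes were tested by exact permutation (scipy 1.17.1, Python 3.11.15). Anagen and telogen had 1 array each and no test. The limma fits were tested on simulated data. The values are array signals, which have no read depth, and each arm had 4 arrays.

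The genes and lists were chosen with earlier results of these data known. The 10 genes were described whatever their values. Of each pathway list up to 4 genes with the lowest p between the arms were named, and up to 2 in each other comparison. For Yap1, Wwtr1, Tead1 and Lats2 the 3 genes of highest r were named. Alternatives were no level filter, quantile normalization, median centring, the mean of a gene's probe sets, no block, and leaving out each day or hair stage. Of the listed genes, 14 had no named probe set and were not analysed here.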

Additional observations from a re-analysis of the deposited data

Results flagged for a closer look

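In 26 groups of 4 arrays examined for a value far from the other 3, 2 were found, and chance gives about 1 in 20 groups. For Wwtr1 minus Yap1 in expanded skin, the array of day 21 stood apart at -0.01, below the other 3. For Mob1a minus Mob1b in non-expanded skin, the array of day 7 stood apart at 5.69, above the other 3. The cause of neither was tested.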

How the results depend on the processing

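With no replicate block, the plain comparison of expanded with non-expanded skin called 2 genes of the array and none of the 10. The pairing by day rests on the labels, and no such block could be fitted against skin without surgery, whose arrays have no day. Without the level filter, 33 genes passed between expanded skin and skin without surgery, and 1 of the 10 genes had an unadjusted p under 0.05 in non-expanded skin against it. Quantile normalization left 1 of the 10 at an unadjusted p under 0.05 between the arms.

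Leaving out 1 day or hair stage at a time, 0 to 1 genes of the array passed between the arms, and 0 to 4 of the 10 had an unadjusted p under 0.05. The 4 were reached without day 7 (Wwtr1, Mob1a, Lats2 and Tead1), and 0 without any other day. The share of all genes at that p without day 7 is not given here, so the 4 cannot be set against it. With all days it was 8.8% in either direction. For the slopes this count was 0 to 1 in either arm, and 2 to 9 slopes were positive in non-expanded skin. In non-expanded skin against skin without surgery, 0 to 2645 genes passed, 0 to 2 of the 10 had an unadjusted p under 0.05 and 1 to 6 were positive. In expanded skin against it these ranges were 0 to 1850, 0 to 2 and 4 to 9. The 2645 and 1850 arose with anagen as the one array without surgery. Lats2 minus Lats1 changed sign, between -0.35 and 0.27, and was 0.0884 without day 21. The cause of these shifts was not tested.

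Of 530 values of the 10 genes (Tead2 and Tead4, at background, included) under 11 settings, 59 changed sign, 46 moved by more than 1 SE, and 1 passed an adjusted p of 0.05 (Mob1b in non-expanded skin against anagen alone). With 4 arrays an arm and 1 array a stage, small differences were not detectable.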
